A study of Mus musculus with 15 samples.

Results

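RNA levels of 9 genes of the DNA methylation machinery were followed in mouse plantaris, a fast hindlimb muscle, after weighted running and after a later period of rest. The 9 genes were taken by symbol and are Dnmt3a, Dnmt3b, Dnmt1 and Uhrf1, which place or maintain DNA methylation, Tet1, Tet2, Tet3 and Tdg, which act in its removal, and Mbd1, which binds it. All 9 were among the 20406 genes counted in each of 15 libraries of whole-muscle RNA. None of the 9 passed the test in any of 7 comparisons between groups, so the values below describe levels, spread and the size of difference that each comparison leaves possible.

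All mice were adult males of the HSA-GFP strain, in which a human skeletal actin promoter drives a reverse tetracycline transactivator and a tetracycline response element drives histone 2B fused to green fluorescent protein, so that the fluorescent histone marks the nuclei of muscle fibres. The RNA came from the whole muscle and not from the labelled nuclei. Mice entered at 4 months of age. Progressive weighted wheel running (PoWeR), voluntary running against a load that is raised over time, lasted 8 weeks, and detraining, in which mice no longer had the training, lasted 12 weeks. By their titles, 3 libraries were detrained at 9 months (9M_PoW+DT), 3 untrained at 9 months (9M_UT), 3 trained at 6 months with identifiers that begin with LD (6M_POW_LD), 3 trained at 6 months (6M_PoW) and 3 untrained at 6 months (6M_UT). The labels do not spell out LD. For 9 libraries the treatment field says something else than the title: it names the other condition for all 6 libraries of 9 months and calls the 3 LD libraries sedentary. Directions that involve these 9 libraries rest on the titles. The 6-month, 9-month and LD libraries carry different series of identifiers, so age or LD status and library series cannot be told apart. The labels do not say that replicates came from separate mice, and the p-values cover no more than the spread among these libraries.

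Methylation of cytosine in CpG dinucleotides is set by Dnmt3a and Dnmt3b on unmethylated DNA and copied after replication by Dnmt1, which Uhrf1 brings to hemimethylated sites. The Tet enzymes oxidise methylcytosine with oxoglutarate and iron, and Tdg cuts out the oxidised products so that base excision repair can restore an unmodified cytosine. Nuclei inside muscle fibres do not divide, so loss of methylation by dilution at cell division, which Dnmt1 and Uhrf1 counter, is not a route open to them. The study asked whether training leaves a lasting mark on DNA methylation.

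Most annotated starts of the genes that write and erase CpG methylation lie in DNA with more CpG than the median promoter window. RefSeq promoter windows on GRCm38.p6, each from 250 bases before to 50 bases after an annotated start, were included for 8 of the 9 genes, 13 windows in all. No window of Mbd1 was included. In 12 of the 13 windows the number of CpG dinucleotides was above 7, the median of all 32851 windows, whose quartiles were 3 and 20. Not all of the 12 reached the upper quartile, and the Dnmt3a windows that begin at 3806730 and 3806910 overlap. Shown are the Tet2 window, the richest of the 13, a Dnmt3a window, from the member with the highest level per length, and the richest and poorest of the 3 Dnmt1 windows, which show how far the annotated starts of 1 gene can differ. Each sequence reads 5′ to 3′ on the gene's strand, and capitals mark CpG.
Tet2: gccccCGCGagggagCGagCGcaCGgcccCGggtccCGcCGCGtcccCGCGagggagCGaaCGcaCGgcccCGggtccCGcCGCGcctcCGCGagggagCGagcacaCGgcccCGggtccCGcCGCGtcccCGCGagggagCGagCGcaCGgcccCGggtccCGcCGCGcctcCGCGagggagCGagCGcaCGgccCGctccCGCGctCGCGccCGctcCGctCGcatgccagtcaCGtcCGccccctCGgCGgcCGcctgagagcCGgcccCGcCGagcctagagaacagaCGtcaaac
Dnmt3a: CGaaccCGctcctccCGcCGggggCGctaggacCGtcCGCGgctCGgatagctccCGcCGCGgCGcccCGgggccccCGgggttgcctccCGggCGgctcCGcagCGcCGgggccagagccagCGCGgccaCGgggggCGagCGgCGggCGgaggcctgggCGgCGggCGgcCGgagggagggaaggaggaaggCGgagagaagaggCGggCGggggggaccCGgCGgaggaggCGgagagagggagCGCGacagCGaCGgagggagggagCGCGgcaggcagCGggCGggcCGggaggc
Dnmt1, downstream start: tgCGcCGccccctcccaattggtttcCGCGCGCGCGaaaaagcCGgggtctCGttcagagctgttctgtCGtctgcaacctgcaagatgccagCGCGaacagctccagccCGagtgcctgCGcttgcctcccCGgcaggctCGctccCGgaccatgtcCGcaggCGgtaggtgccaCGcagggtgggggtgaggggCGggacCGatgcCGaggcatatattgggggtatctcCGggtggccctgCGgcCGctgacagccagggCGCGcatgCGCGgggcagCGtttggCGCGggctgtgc
Dnmt1, upstream start: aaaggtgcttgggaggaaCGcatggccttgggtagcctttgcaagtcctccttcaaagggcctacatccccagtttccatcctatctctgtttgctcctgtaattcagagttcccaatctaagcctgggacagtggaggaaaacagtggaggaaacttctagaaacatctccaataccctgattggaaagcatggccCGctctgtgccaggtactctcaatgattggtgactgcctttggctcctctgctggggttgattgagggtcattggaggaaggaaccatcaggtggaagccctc
The Tet2 window, chr3:133544341-133544640 on the minus strand, holds 57 CpG, more than 99.8% of all windows. The Dnmt3a window, chr12:3806730-3807029 on the plus strand, holds 46. The downstream Dnmt1 window, chr9:20952574-20952873 on the minus strand, holds 33, and the upstream one, chr9:20959839-20960138 on the same strand, holds 2. The counts per gene do not separate starts, and no methylation was measured in these libraries.

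**Figure D1:**
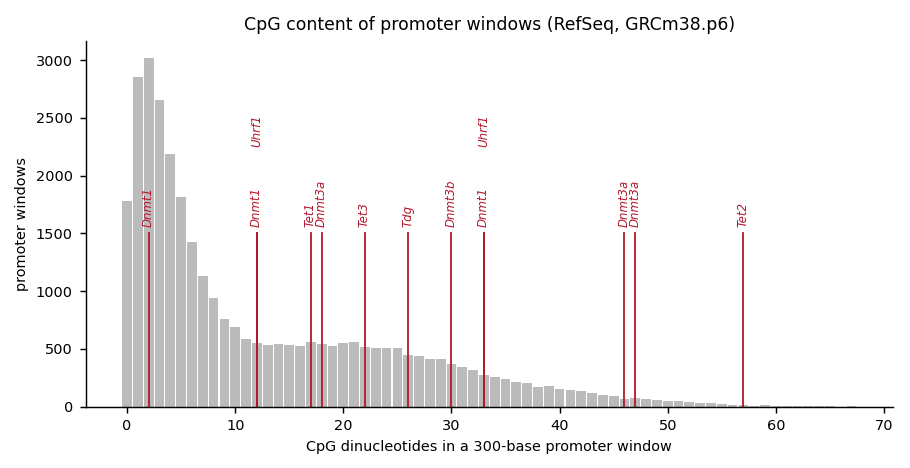
CpG dinucleotides per 300-base promoter window (horizontal axis) against the number of windows with that count (vertical axis), for all 32851 windows in the background and the 13 windows of the methylation genes as red marks. All red marks but 1, the upstream Dnmt1 window with 2 CpG, lie above the median of 7.

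The other windows held 47 and 18 CpG (Dnmt3a), 12 (Dnmt1), 12 and 33 (Uhrf1), 30 (Dnmt3b), 26 (Tdg), 22 (Tet3) and 17 (Tet1). The letters TTTCCCGC or TTTGGCGC, forms of the binding site of E2F factors, which act at genes of DNA replication, were searched on both strands. They occurred in 1 of the 13 windows, the downstream Dnmt1 window printed above (TTTGGCGC, near its 3′ end), and in 1.56% of all windows. A match of letters is a description and does not show binding.

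Library totals ran from 18865048 to 27688842 counts, and no pair of replicates agreed within sampling noise. After the filter on low counts, 14919 genes were tested in the 12 libraries without LD and 15181 in all 15, and all 9 methylation genes passed the filter in both. Summed markers of muscle fibres (Acta1, Ckm, myosins and others) ranged from 97318 to 129010 CPM, counts scaled to a library total of 1000000, and no gene of any marker list was at 0 in a whole group, so RNA of fibres, vessels, connective tissue and blood cells is mixed in every group. In such bulk RNA, fewer cells of a type and less RNA per cell cannot be told apart. Gene positions below are on GRCm38 (mm10).

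Compared per length, the writers in plantaris were led by Dnmt3a and the dioxygenases by Tet2, while Dnmt3b, Uhrf1 and Tet1 were counted at most 40 times in a library. Dnmt3a averaged 4.50 ± 0.791 CPM per kilobase of exon (SD, n = 15), above 66.8% of 14642 ranked genes. Mbd1 averaged 3.49 ± 0.254, Tdg 2.96 ± 0.845 and Tet2 2.84 ± 0.501 CPM per kilobase over the same 15 libraries. Tet3 averaged 1.85 ± 0.230 and Dnmt1 1.05 ± 0.125 CPM per kilobase. The bottom of the order was formed by Dnmt3b with 0.163 ± 0.0644, Uhrf1 with 0.116 ± 0.0683 and Tet1 with 0.0612 ± 0.0227 CPM per kilobase, the last above only 1.24% of ranked genes.

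Between neighbours in this order, the ranges over 15 libraries were separate in 2 places, between Tet3 and Dnmt1 and between Dnmt1 and Dnmt3b. Dnmt3a was above Mbd1 in 14 of 15 libraries and Tet2 above Tet3 in 14 of 15, while Mbd1 was above Tdg, and Tdg above Tet2, in 8 of 15 each. Dnmt3b exceeded Uhrf1, and Uhrf1 exceeded Tet1, in 12 of 15 libraries each. With the longest transcript in place of all exons as the length, a choice added after the data were seen, Tet2 and Tdg exchanged the third and the fourth place and the others kept theirs.

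The ratio within a library shows the same divide between paralogs. Dnmt3a per kilobase was a median of 29.97 times Dnmt3b (range 13.95 to 58.6 over 15 libraries) and 4.51 times Dnmt1 (2.52 to 5.41). Tet2 per kilobase was a median of 42.5 times Tet1 (31.97 to 133) and 1.56 times Tet3 (0.890 to 2.39). These multiples depend on the length used, and with the longest transcript the same medians were 43.6, 6.16, 72.7 and 1.87.

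**Figure D2:**
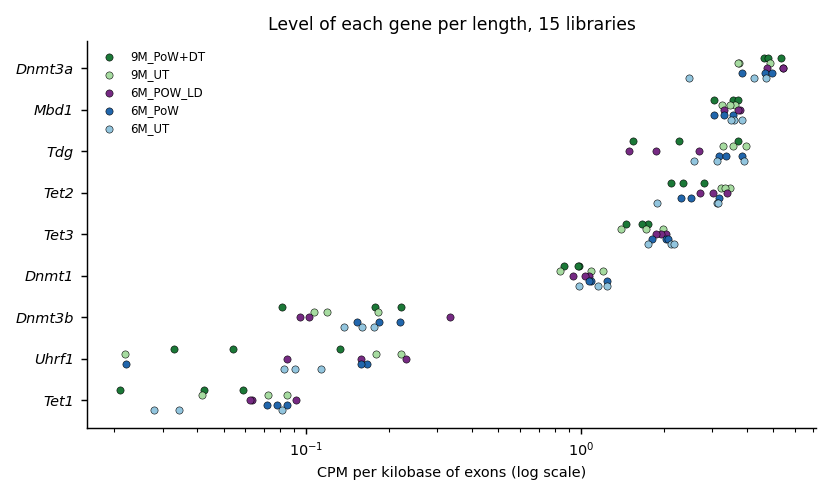
Level of each of the 9 genes in CPM per kilobase of exon (log axis), with 1 point per library and the 15 libraries coloured by group. Dnmt3a, Mbd1, Tdg, Tet2 and Tet3 lie at or above 1.39, Dnmt1 between 0.837 and 1.24, and Dnmt3b, Uhrf1 and Tet1 at or below 0.334 CPM per kilobase.

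Dnmt3a (chr12:3806007-3914443, plus strand), the de novo methyltransferase that dominated this muscle, had 88.7, 76.7 and 79.5 CPM in 9M_PoW+DT and 81.2, 62.3 and 62.1 CPM in 9M_UT. It had 79.1, 90.4 and 90.1 CPM in 6M_POW_LD, 77.9, 82.3 and 63.8 CPM in 6M_PoW, and 41.1, 78.4 and 70.6 CPM in 6M_UT. The lowest value of all 15 belonged to replicate 1 of 6M_UT. The LD libraries lay above all 6M_UT libraries (25.1% of tested genes did not overlap there), while no other compared pair of groups was separate. The group means were 81.7 ± 6.28 CPM in 9M_PoW+DT, against 68.5 ± 10.9 CPM in 9M_UT, a log2 fold change of 0.25 ± 0.21 (SE, edgeR quasi-likelihood test, Benjamini-Hochberg adjusted p = 0.870). In 6M_PoW the mean was 74.7 ± 9.70 CPM, against 63.4 ± 19.7 CPM in 6M_UT, a log2 fold change of 0.23 ± 0.21 (edgeR adjusted p = 0.764), which was -0.0027 without 6M_UT replicate 1. An antisense gene inside Dnmt3a, Dnmt3aos, had at most 3 counts in a library.

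Dnmt1 (chr9:20907209-20959888, minus strand), the maintenance methyltransferase, was low and even. It had 7.27, 6.37 and 7.17 CPM in 9M_PoW+DT and 7.98, 8.85 and 6.18 CPM in 9M_UT. It had 6.87, 7.91 and 7.60 CPM in 6M_POW_LD, 9.17, 8.00 and 7.86 CPM in 6M_PoW, and 7.23, 8.50 and 9.16 CPM in 6M_UT. All 15 values lay within 1.48-fold of each other. The detrained libraries were all below the 6M_PoW ones (19.3% of tested genes did not overlap between these groups). The trained minus untrained difference at 6 months was 0.0032 on the log2 scale, with a 95% interval of -0.35 to 0.36.

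Dnmt3b (chr2:153649450-153687730, plus strand), the other de novo enzyme, was counted 9 to 40 times per library. It had 0.909, 1.12 and 0.416 CPM in 9M_PoW+DT and 0.607, 0.929 and 0.544 CPM in 9M_UT. It had 1.71, 0.522 and 0.483 CPM in 6M_POW_LD, 0.940, 0.781 and 1.12 CPM in 6M_PoW, and 0.904, 0.814 and 0.698 CPM in 6M_UT. The highest of the 15 was LD replicate 4, and the LD group therefore had the widest spread, 0.904 ± 0.695 CPM (SD, n = 3). Its difference from 6M_UT was 0.16 ± 0.52 (log2, SE), and -0.67 without that library, so no direction can be given.

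Uhrf1 (chr17:56303321-56323486, plus strand), the partner that recruits Dnmt1, was counted 2 to 23 times per library. It had 0.562, 0.141 and 0.231 CPM in 9M_PoW+DT and 0.0934, 0.765 and 0.939 CPM in 9M_UT. It had 0.981, 0.672 and 0.362 CPM in 6M_POW_LD, 0.0940, 0.707 and 0.674 CPM in 6M_PoW, and 0.387, 0.354 and 0.480 CPM in 6M_UT. Counting error alone is wide here, since a count of 2 has an exact 95% Poisson interval of 0.242 to 7.22 and the highest count, 23, one of 14.6 to 34.5. Its biological coefficient of variation in the edgeR fit was 57.0%, against a median of 16.6% over the tested genes, and Uhrf1 passed in none of the comparisons.

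**Figure D3:**
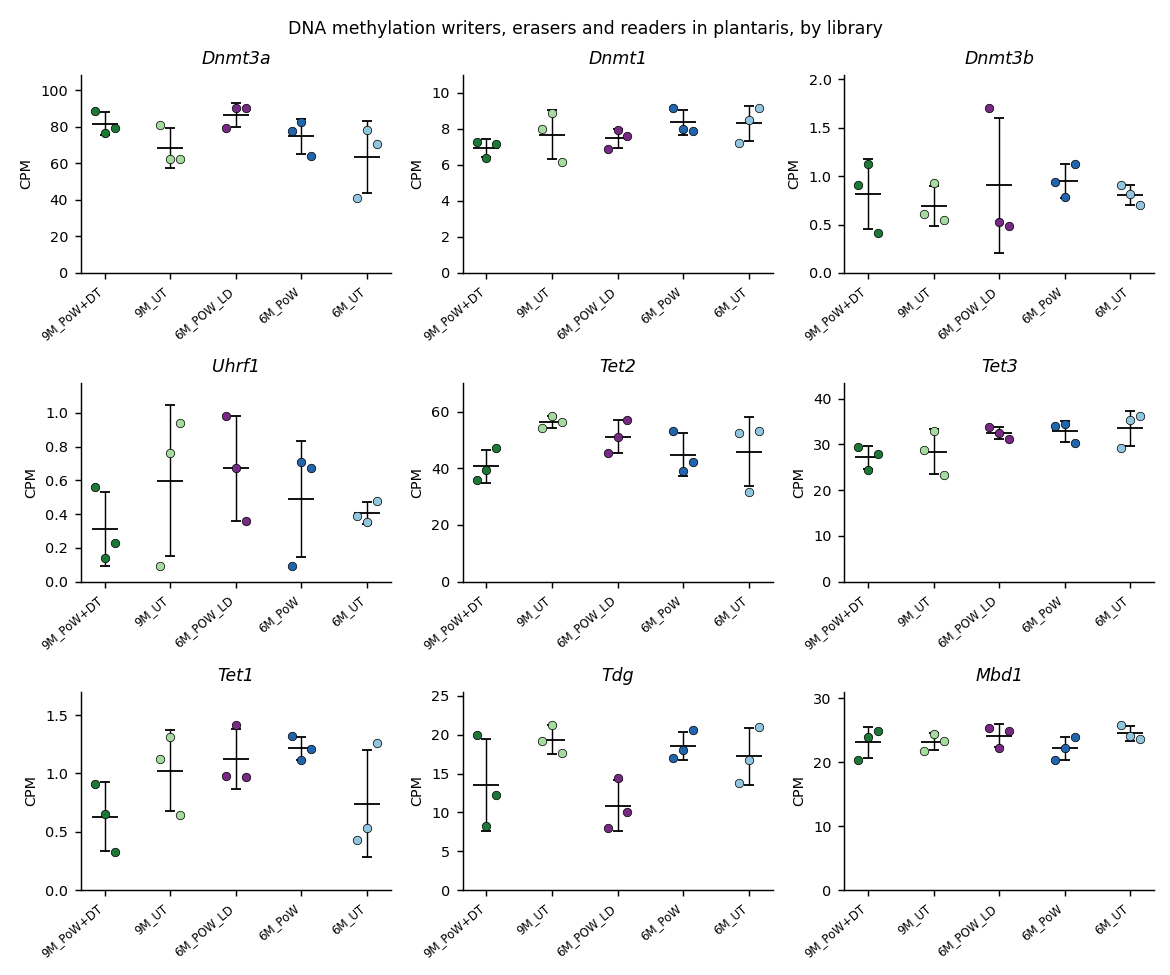
CPM of each of the 9 genes (vertical axes, 1 panel per gene) in the groups 9M_PoW+DT, 9M_UT, 6M_POW_LD, 6M_PoW and 6M_UT, with 1 point per library and the mean ± SD as a bar. The 3 detrained Tet2 points (35.8 to 47.1 CPM) lie below the 3 points of 9M_UT (54.5 to 58.5 CPM), 2 groups that did not overlap in 11.9% of tested genes. Mbd1 stays between 20.4 and 25.9 CPM in all groups.

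Tet2 (chr3:133463679-133545139, minus strand), the most abundant of the methylcytosine dioxygenases, was the 1 member of 9 that separated detrained from untrained muscle at 9 months without overlap. Such a separation was found for 11.9% of all tested genes. It had 35.8, 39.4 and 47.1 CPM in 9M_PoW+DT and 54.5, 58.5 and 56.3 CPM in 9M_UT. In 6M_POW_LD it had 45.6, 51.0 and 57.3 CPM, in 6M_PoW 53.4, 39.0 and 42.3 CPM, and in 6M_UT 52.6, 31.8 and 53.3 CPM. All 3 detrained values were below all 3 of 9M_UT, and the 9 values of 6 months ran from 31.8 to 57.3 CPM, across both. The mean was 40.8 ± 5.80 CPM in 9M_PoW+DT, against 56.4 ± 2.02 CPM in 9M_UT (SD, n = 3 each), a fold of 0.724 with a 95% interval of 0.548 to 0.956. On the log2 scale this was -0.47 ± 0.18 (SE), with an unadjusted p of 0.0266 and a Benjamini-Hochberg adjusted p of 0.713 in edgeR, so it did not pass. Leaving out each of the 6 libraries in turn gave log2 differences of -0.58 to -0.38. The same 9M_UT libraries also lay above the 6M_UT ones (0.30 ± 0.18 on the log2 scale, edgeR adjusted p = 0.830), a pair of groups in which 11.9% of tested genes did not overlap. The log2 value was 0.093 without 6M_UT replicate 2.

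Summed markers of some cell types did not overlap between the same 2 groups of 9 months, while those of others did. Among single tested genes, 11.9% did not overlap between these groups. The sums for muscle fibres, macrophages and leukocytes, smooth muscle and pericytes, Schwann cells and blood overlapped. Those that did not overlap are given next. Endothelial markers (Pecam1, Cdh5, Kdr, Tek and Flt1) summed to 206 to 254 CPM in 9M_PoW+DT, against 256 to 276 CPM in 9M_UT, and adipocyte markers (Adipoq, Lep, Plin1 and Cidec) to 15.4 to 61.6 CPM in 9M_PoW+DT, against 7.46 to 13.9 CPM in 9M_UT. Satellite cell markers (Pax7, Myf5, Chodl, Calcr, Vcam1 and Sdc4) summed to 34.9 to 45.5 CPM in 9M_PoW+DT, against 47.5 to 54.4 CPM in 9M_UT. Markers of progenitors that form connective tissue and fat in muscle (Pdgfra, Dpt, Dcn, Lum, Ly6a and Cd34) summed to 309 to 349 CPM in 9M_PoW+DT, against 363 to 388 CPM in 9M_UT. By gene, the fitted difference was below 0 for all 5 endothelial and 5 of 6 satellite cell markers and above 0 for all 4 adipocyte markers. The progenitor markers went both ways, 2 above and 4 below 0, with a median of -0.052 on the log2 scale. None of these marker genes passed the test in this comparison, and their part in the Tet2 difference was not tested.

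Tet3 (chr6:83362373-83459084, minus strand), a dioxygenase of the same family, had 29.3, 24.3 and 27.9 CPM in 9M_PoW+DT and 28.9, 33.1 and 23.3 CPM in 9M_UT. It had 33.9, 32.5 and 31.2 CPM in 6M_POW_LD, 33.9, 34.5 and 30.3 CPM in 6M_PoW, and 29.2, 35.3 and 36.2 CPM in 6M_UT. The detrained libraries lay below all 6M_PoW libraries (19.3% of tested genes did not overlap there), and all other pairs of groups compared here overlapped. A non-coding gene on the opposite strand, B230319C09Rik, overlaps Tet3 and had 0 to 17 counts.

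Tet1 (chr10:62804570-62908996, minus strand), the third dioxygenase, was counted 7 to 38 times per library. It had 0.909, 0.656 and 0.324 CPM in 9M_PoW+DT and 1.12, 1.31 and 0.642 CPM in 9M_UT. It had 0.981, 1.42 and 0.965 CPM in 6M_POW_LD, 1.32, 1.12 and 1.21 CPM in 6M_PoW, and 0.430, 0.531 and 1.26 CPM in 6M_UT. Its 3 values in 6M_PoW were close together, and 1 of the 6M_UT values lay among them. Those of 6M_POW_LD, also titled as trained, were wider apart (0.965 to 1.42 CPM). The log2 difference was -0.69 ± 0.52 after detraining and 0.71 ± 0.50 after training. With 1 library left out it ranged from -1.06 to -0.38 after detraining and from 0.44 to 1.32 after training, the last without 6M_UT replicate 3. The test of the difference between those 2 responses gave -1.40 ± 0.72 on the log2 scale, with a 95% interval of -2.93 to 0.13 and an edgeR adjusted p of 0.577.

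Tdg (chr10:82629828-82650799, plus strand), the glycosylase that removes oxidised methylcytosine, had 19.9, 8.29 and 12.2 CPM in 9M_PoW+DT and 19.2, 21.3 and 17.7 CPM in 9M_UT. It had 8.02, 14.4 and 10.1 CPM in 6M_POW_LD, 17.0, 18.0 and 20.6 CPM in 6M_PoW, and 13.8, 16.7 and 21.1 CPM in 6M_UT. Detrained replicates 2 and 3 and LD replicates 4 and 6 were the 4 lowest of the 15. The LD group lay wholly below 6M_PoW (21.4% of tested genes did not overlap there). Detrained minus untrained muscle gave -0.52 ± 0.26 on the log2 scale (edgeR adjusted p = 0.767), -0.27 without detrained replicate 2 and -0.92 without detrained replicate 1.

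The Tdg values carry a limit of their own, because 2 processed pseudogenes copy its sequence. Tdg-ps2 (chr10:42054113-42055306) shares 76.5% and Tdg-ps (chr15:82516311-82519278) 56.0% of its 50-base words with Tdg transcripts, and 33.1% of the Tdg words occur in a pseudogene. The deposited Tdg count was not a whole number in 14 of 15 libraries, and such fractions arise where reads are divided between features. They are common, since 26.9% to 31.9% of all listed genes had such a count in each library. Tdg took 81.6%, 52.2% and 60.0% of the summed CPM of the 3 genes in 9M_PoW+DT and 84.2%, 82.8% and 82.3% in 9M_UT. The share was 62.5%, 81.6% and 65.5% in 6M_POW_LD and 75% to 82.1% in the 6 libraries of 6M_PoW and 6M_UT. The 4 libraries with the lowest Tdg were also those in which Tdg took the smallest share, but Tdg is the larger part of the sum, so a low Tdg by itself lowers the share. Tdg-ps2 had 6.98 and 7.82 CPM in detrained replicates 2 and 3 and 4.65 and 4.75 CPM in LD replicates 4 and 6. It had 3.43 to 4.67 CPM in 6M_PoW and 4.17 to 4.64 CPM in 6M_UT.

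Summed over Tdg and its 2 pseudogenes, a fit added after the data were seen, the level was 20.2 ± 4.28 CPM in 9M_PoW+DT and 23.3 ± 2.17 CPM in 9M_UT, and the log2 difference was -0.21 (edgeR adjusted p = 0.840). The sum was 15.3 ± 2.42 CPM in 6M_POW_LD, 22.8 ± 2.45 CPM in 6M_PoW and 21.9 ± 3.62 CPM in 6M_UT. For the sum, the LD group (12.8 to 17.7 CPM) lay below both 6M_PoW (20.7 to 25.5 CPM) and 6M_UT (18.4 to 25.6 CPM). Of all tested genes, 21.4% did not overlap between LD and 6M_PoW and 25.1% between LD and 6M_UT. The log2 difference of the LD sum was -0.57 from 6M_PoW (edgeR adjusted p = 0.0704) and -0.51 from 6M_UT (edgeR adjusted p = 0.0748). Neither passed. In the other fits of Tdg alone, with other tools, scalings and filters or 1 library left out, the adjusted p ran from 0.0577 to 0.486 against 6M_PoW and from 0.0810 to 0.441 against 6M_UT. At the 3′ end Tdg also overlaps Glt8d2 on the opposite strand, which had 6 to 41.2 counts.

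**Figure D4:**
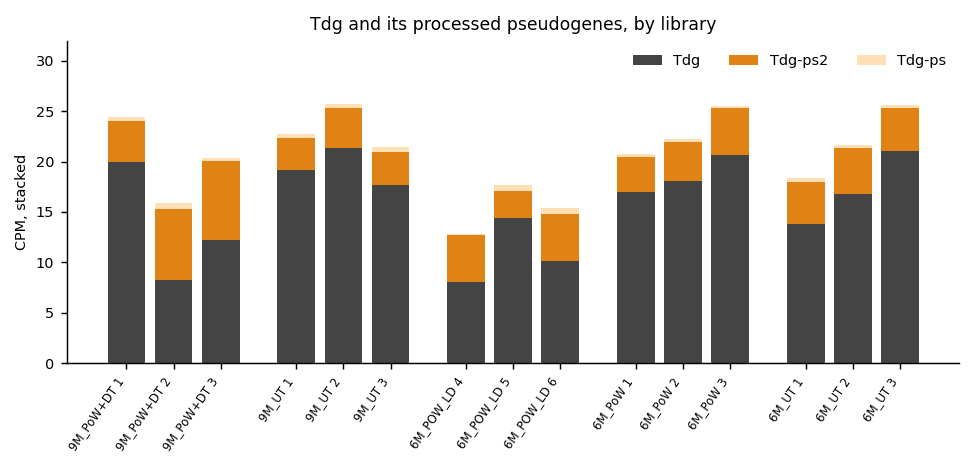
CPM of Tdg and its pseudogenes Tdg-ps2 and Tdg-ps as stacked bars, 1 bar per library in the order 9M_PoW+DT, 9M_UT, 6M_POW_LD, 6M_PoW and 6M_UT. In detrained replicates 2 and 3 the Tdg-ps2 part is 6.98 and 7.82 CPM, against 3.13 to 3.99 CPM in 9M_UT.

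Mbd1 (chr18:74267605-74282732, plus strand), which binds methylated CpG and recruits repressors, varied least. Its 15 values ran from 20.4 to 25.9 CPM, a 1.27-fold span, and its biological coefficient of variation was 10.3%. The groups averaged 23.1 ± 2.40 CPM in 9M_PoW+DT, 23.2 ± 1.31 CPM in 9M_UT, 24.2 ± 1.73 CPM in 6M_POW_LD, 22.2 ± 1.80 CPM in 6M_PoW and 24.5 ± 1.20 CPM in 6M_UT. The trained minus untrained interval at 6 months was -0.37 to 0.075 on the log2 scale, and the detrained minus untrained interval at 9 months was -0.23 to 0.22.

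The question put to the 6-month muscles was what 8 weeks of PoWeR did to the writers and erasers. None of the 9 passed the edgeR test (0% of 14919 tested genes did), 0 of 9 had an unadjusted p under 0.05 (9.75% of tested genes), and 0 of 9 had groups that did not overlap (16.1% of tested genes). Log2 differences ran from -0.15 (Mbd1) to 0.71 (Tet1), 6 above and 3 below 0, with a median of 0.11 against 0.0013 over all tested genes. The 95% intervals ran from -0.37 to 0.075 for Mbd1, -0.31 to 0.24 for Tet3, -0.35 to 0.36 for Dnmt1 and -0.44 to 0.37 for Tet2. They were wider for Dnmt3a (-0.24 to 0.70) and Tdg (-0.46 to 0.67), and widest for Dnmt3b (-0.73 to 1.18), Tet1 (-0.35 to 1.77) and Uhrf1 (-1.40 to 1.97). DESeq2 and limma-voom also called 0 of the 9.

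Detrained muscle was compared with untrained muscle of 9 months to ask what remained of the training. None of the 9 passed in edgeR (0.0201% of 14919 tested genes did), nor in DESeq2 or limma-voom. Tet2 alone had an unadjusted p under 0.05 (1 of 9, against 6.52% of tested genes) and groups that did not overlap (1 of 9, against 11.9%). The differences lay above 0 for 2 members and below 0 for 7, with a median of -0.14 on the log2 scale, against 0.0048 over all tested genes. If the treatment field is right and the titles are not, every sign here is turned round, and Tet2 would be higher in detrained muscle by 0.47.

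In the test of whether the response after detraining differed from that after training, 0 of 9 members passed in edgeR (0.0268% of tested genes did), 0 had an unadjusted p under 0.05 (9.48% of tested genes) and DESeq2 and limma-voom called 0. The median difference of the 9 was -0.15 on the log2 scale. The 2 comparisons share no libraries.

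Age was compared in untrained muscle, 9M_UT against 6M_UT, and here too 0 of 9 passed in edgeR (0.0134% of tested genes did), 0 had an unadjusted p under 0.05 (6.72%), and DESeq2 and limma-voom called 0. Tet2, described above, was the 1 member whose groups did not overlap (11.9% of tested genes). Detrained against trained muscle, 9M_PoW+DT against 6M_PoW, differs in age and library series as well. It gave 0 of 9 passing in edgeR (0.295% of tested genes did), in DESeq2 and in limma-voom, and 0 with an unadjusted p under 0.05 (12.7%).

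Dnmt1, Tet1 and Tet3 were lower in all 3 detrained libraries than in all 3 libraries of 6M_PoW (3 of 9 members, against 19.3% of tested genes). Tet3 averaged 27.2 ± 2.58 CPM in 9M_PoW+DT and 32.9 ± 2.29 CPM in 6M_PoW, a log2 difference of -0.27 ± 0.13 (edgeR adjusted p = 0.404). Tet1 averaged 0.629 ± 0.293 CPM in 9M_PoW+DT and 1.22 ± 0.1001 CPM in 6M_PoW, a log2 difference of -0.93 ± 0.51 (edgeR adjusted p = 0.484). Dnmt1 averaged 6.94 ± 0.492 CPM in 9M_PoW+DT and 8.34 ± 0.717 CPM in 6M_PoW, a log2 difference of -0.26 ± 0.17 (edgeR adjusted p = 0.575). Of the marker lists, Lep of adipocytes rose (5.48 ± 0.86, edgeR adjusted p = 0.0317) and Rgs5 of pericytes fell by 0.48 ± 0.078 (edgeR adjusted p = 0.0174) between the same groups, on the log2 scale. Lep averaged 7.89 ± 7.84 CPM in 9M_PoW+DT, an SD near the mean, and 0.175 ± 0.0577 CPM in 6M_PoW, so its fold rests on few counts and uneven libraries. The part of such cells was not tested.

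**Figure D5:**
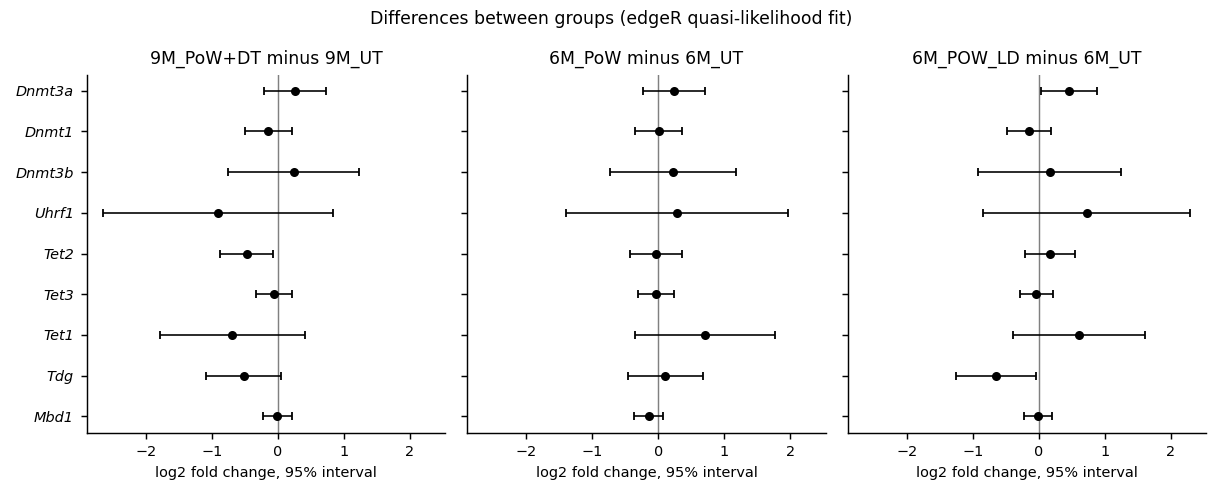
Log2 fold change of each of the 9 genes (points) with its 95% interval (bars) for 9M_PoW+DT minus 9M_UT, 6M_PoW minus 6M_UT and 6M_POW_LD minus 6M_UT. Intervals that leave out 0 are those of Tet2 in the first panel (-0.87 to -0.065) and of Dnmt3a (0.029 to 0.88) and Tdg (-1.26 to -0.048) in the third, and none of these passed after adjustment over all genes.

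The LD libraries, titled as trained, gave more calls over all genes than the other comparisons, and the 9 methylation genes were not among them. Against 6M_UT, 0 of 9 passed in edgeR, against 4.99% of 15181 tested genes, and 2 of 9 had an unadjusted p under 0.05, against 20% of tested genes. DESeq2 and limma-voom called 0 of the 9. Dnmt3a averaged 86.5 ± 6.46 CPM in 6M_POW_LD and 63.4 ± 19.7 CPM in 6M_UT, a log2 difference of 0.45 ± 0.20 (unadjusted p = 0.0381, edgeR adjusted p = 0.219), and it was the 1 member of 9 without overlap, against 25.1% of tested genes. Without 6M_UT replicate 1 the difference was 0.22. Tdg averaged 10.8 ± 3.28 CPM in 6M_POW_LD and 17.2 ± 3.65 CPM in 6M_UT, a log2 difference of -0.66 ± 0.28 (unadjusted p = 0.0365, edgeR adjusted p = 0.215). The remaining 7 ran from -0.15 (Dnmt1) to 0.72 (Uhrf1).

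Against 6M_PoW, whose titles name the same training, 0 of 9 passed in edgeR (2.4% of 15181 tested genes did), in DESeq2 and in limma-voom. Tdg was the 1 member with an unadjusted p under 0.05 (14.3% of tested genes) and the 1 without overlap (21.4%). It averaged 10.8 ± 3.28 CPM in 6M_POW_LD and 18.6 ± 1.86 CPM in 6M_PoW, a log2 difference of -0.76 ± 0.28 with a 95% interval of -1.37 to -0.15 (edgeR adjusted p = 0.213). The DESeq2 fit of this difference had an adjusted p of 0.0577, the lowest of any member over all other tools, scalings, filters and left-out libraries, under which this difference had adjusted p-values of 0.0577 to 0.486, and the split of reads with its pseudogenes described above bears on it. Both LD comparisons use the same 3 LD libraries.

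Genes that work with these members were followed in 6 lists. The lists held readers of methylated or unmethylated CpG (11 tested genes), partners that place or maintain methylation (13 of 16 tested), and base excision repair with demethylation partners (12). The others held cofactors and partners of the Tet enzymes (10), the methyl donor cycle that makes S-adenosylmethionine (16), and DNA replication and cell cycle (10 of 15 tested). In the 5 comparisons without LD libraries, 0 of the 72 tested genes of these lists passed in edgeR and 0 in limma-voom, and DESeq2 called 1, for age. Unadjusted edgeR p-values under 0.05 were held by 8.33% of the list genes for training (9.75% of all tested genes), 12.5% for detraining (6.52%) and 9.72% for detraining minus training (9.48%). For age the share was 8.33% (6.72%), and for detrained against trained it was 12.5% (12.7%).

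With training at 6 months, unadjusted p-values under 0.05 were found for 6 of these 72 genes, a share below that of all tested genes. Among them were 4 repair genes, 1 higher and 3 lower in 6M_PoW, and 1 gene of the methyl donor cycle. The repair polymerase Polb, which fills the gap left by base excision, averaged 24.5 ± 0.728 CPM in 6M_PoW and 32.1 ± 3.67 CPM in 6M_UT, a log2 difference of -0.39 ± 0.10 (edgeR adjusted p = 0.205). Ung, which removes uracil from DNA, averaged 8.68 ± 0.988 CPM in 6M_PoW and 12.5 ± 2.75 CPM in 6M_UT (-0.53 ± 0.17, edgeR adjusted p = 0.316). Mtr, the methionine synthase, averaged 36.7 ± 2.43 CPM in 6M_PoW and 46.6 ± 8.88 CPM in 6M_UT (-0.35 ± 0.14, edgeR adjusted p = 0.443). None of the 3 passed, and the medians of the 6 lists lay between -0.079 and 0.22 on the log2 scale.

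Other differences in the same comparison were those of the reader Zbtb4 (0.23 ± 0.11) and the creatine enzyme Gamt, which uses S-adenosylmethionine (0.40 ± 0.21). The partners Usp7 (-0.13 ± 0.077) and Ehmt2 (0.15 ± 0.098), the replication genes Mcm3 (-0.53 ± 0.34) and Rrm2 (0.70 ± 0.51) and the Tet partner Cxxc4 (0.89 ± 0.68) were also among the genes with the smallest p of their lists. Their edgeR adjusted p-values ran from 0.516 (Zbtb4) to 0.710 (Cxxc4).

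After detraining, the genes with the smallest p of each list included the reader Zbtb38, with 58.5 ± 6.77 CPM in 9M_PoW+DT and 73.3 ± 7.48 CPM in 9M_UT (-0.32 ± 0.11 on the log2 scale). Trim28, a corepressor that keeps imprinted and repeat DNA methylated, had 36.5 ± 2.59 CPM in 9M_PoW+DT and 45.3 ± 5.49 CPM in 9M_UT (-0.31 ± 0.10). Mtrr, which reactivates methionine synthase, had 18.5 ± 1.80 CPM in 9M_PoW+DT and 23.5 ± 1.46 CPM in 9M_UT (-0.34 ± 0.12). All 3 had an edgeR adjusted p of 0.646 and did not pass.

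Others named by the same rule were Gamt (0.49 ± 0.20), Nsd1, a histone methyltransferase whose mark recruits Dnmt3a (0.20 ± 0.084), Idh3b (0.13 ± 0.062) and Idh3a (0.082 ± 0.066), which make oxoglutarate, Ung (0.35 ± 0.17), Gadd45g (-1.16 ± 0.54), Mbd2 (-0.12 ± 0.086), Ccna2 (-1.86 ± 0.72) and Mcm5 (-1.33 ± 0.67), with edgeR adjusted p-values of 0.699 to 0.856. Ccna2 and Mcm5 were at 0.138 and 0.240 CPM in 9M_PoW+DT, so these log2 values rest on few counts. The 10 tested replication genes had a median of -0.34, with 3 above and 7 below 0, against 0.0048 over all tested genes, and the summed level of the list was 26.6 to 30.5 CPM in 9M_PoW+DT and 27.3 to 33.0 CPM in 9M_UT.

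In the LD libraries, 4 of the 72 genes passed the edgeR test against 6M_UT, where 4.99% of all tested genes did, and 2 passed against 6M_PoW, where 2.4% did. In both comparisons the share of list genes was thus near that of all tested genes. Of the 11 readers 2 were lower (2.83% of tested genes were called lower) and 0 higher (2.15%). Mbd3, a subunit of the NuRD repressor complex, had 62.6, 54.2 and 58.8 CPM in 6M_POW_LD and 80.5, 77.9 and 73.1 CPM in 6M_UT. Its 3 LD values were below those of all other 12 libraries. Of all tested genes, 25.1% did not overlap between LD and 6M_UT and 21.4% between LD and 6M_PoW. Mbd3 fell by 0.39 ± 0.072 on the log2 scale against 6M_UT (edgeR adjusted p = 0.00354). It also fell by 0.33 ± 0.072 against 6M_PoW, where it had 73.7, 72.4 and 76.0 CPM (edgeR adjusted p = 0.0186).

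Of the 12 repair genes 1 was higher and 1 lower in the LD libraries than in 6M_UT, and against 6M_PoW 1 reader was lower (1.12% of tested genes were called lower) and 1 repair gene higher (1.28%). Parp1, which binds DNA breaks, had 82.5, 71.9 and 77.9 CPM in 6M_POW_LD and 59.4, 61.3 and 57.5 CPM in 6M_UT. The LD values were above those of all other 12 libraries, and 25.1% of tested genes did not overlap against 6M_UT and 21.4% against 6M_PoW. Parp1 rose by 0.39 ± 0.082 on the log2 scale against 6M_UT (edgeR adjusted p = 0.0107), and by 0.39 ± 0.082 against the 59.8, 61.9 and 57.1 CPM of 6M_PoW (edgeR adjusted p = 0.0156). Polb had 22.8, 22.2 and 27.2 CPM in 6M_POW_LD and 30.3, 29.6 and 36.3 CPM in 6M_UT, without overlap (as 25.1% of tested genes), and fell by 0.41 ± 0.10 (edgeR adjusted p = 0.0302). The other 4 lists had 0 genes passing in either LD comparison.

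These calls rest on few libraries. Of the genes described, Mbd3 against 6M_UT passed in all 6 fits that left out 1 library, Parp1 in 5 of 6 (edgeR adjusted p = 0.0576 without LD replicate 4) and Polb in 3 of 6. Polb did not pass without 6M_UT replicate 3 or without LD replicate 4 or 5. Against 6M_PoW, Mbd3 and Parp1 each passed in 2 of 6, Mbd3 without 6M_PoW replicate 2 or LD replicate 4 and Parp1 without 6M_PoW replicate 2 or LD replicate 5. Their direction held in every fit.

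Cell type markers moved with the LD group as well. Of 6 progenitor markers 4 rose against 6M_UT, Pdgfra, Cd34, Dcn and Lum, where 2.15% of all tested genes were called higher. The list summed to 393 to 473 CPM in 6M_POW_LD, against 306 to 325 CPM in 6M_UT. Of 6 macrophage and leukocyte markers 1 rose, Lyz2, and the list summed to 50.7 to 62.3 CPM in 6M_POW_LD, against 33.9 to 35.6 CPM in 6M_UT. Of 8 fibre markers 3 rose, Acta1, Myh1 and Pvalb, the last also against 6M_PoW, while 2 lay below 0 against 6M_UT. The fibre list summed to 108196 to 119441 CPM in 6M_POW_LD and 99681 to 113765 CPM in 6M_UT, which overlap. Smooth muscle and pericyte markers summed to 365 to 380 CPM in 6M_POW_LD, against 304 to 318 CPM in 6M_UT, and adipocyte markers to 1.83 to 9.05 CPM in 6M_POW_LD, against 9.24 to 11.2 CPM in 6M_UT, and 0 genes of either list passed. Single LD libraries stood apart in other lists. Blood markers summed to 2039 CPM in LD replicate 6, against 214 to 670 CPM in the other 14 libraries, and Schwann cell markers to 65.0 CPM in LD replicate 5, against 14.6 to 26.1 CPM in the other 14. The part of these cells in the differences of Dnmt3a, Tdg, Mbd3, Parp1 and Polb was not tested. In 6M_PoW the sums of 3 of these lists were also above those of 6M_UT, at 371 to 445 CPM for progenitors, 47.5 to 65.9 CPM for macrophages and leukocytes and 366 to 406 CPM for smooth muscle and pericytes.

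The genes whose log2 CPM followed each member most closely over the 15 libraries were taken from 9634 genes and are given as a description, since all values come from the same libraries and share their depth, scaling and tissue makeup. Dnmt3a was followed by Hspg2 (perlecan of basement membranes, Pearson r = 0.941), Cers1 (a ceramide synthase, 0.940) and Lrrc38 (0.935). Tet2 was followed by Irf2bp2 (0.876) and Arntl, a core clock factor (0.843). Tdg was followed by Orc4 of the origin recognition complex (0.867), the glycolytic regulator Pfkfb3 (0.858) and Acvr2a, an activin receptor (0.820).

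For the other members with enough counts, the closest gene was Ogfod3 for Mbd1 (0.859, then Tmpo 0.849 and Fam160a1 0.847), Axin2 for Tet3 (0.830, then Vps50 0.822) and Vps50 for Dnmt1 (0.825, then Smdt1 0.783 and Ercc3 0.762). Vps50 thus appeared beside both Dnmt1 and Tet3. Dnmt3b, Uhrf1 and Tet1 were too low for such a comparison.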

How the data were processed

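Plantaris RNA of 15 libraries was given by the authors in 1 deposited table of expected counts, not normalized. STAR 2.7.3a, DESeq2 and Partek and the build mm10 are named per the submitters' processing notes, with no roles, and how reads were assigned to genes and whether strand was used is not given in the sources used. Starts and ends of 96.6% of the listed genes equal those of GENCODE vM21.

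Expected counts were rounded. Genes were kept by edgeR's filterByExpr, scaled by TMM and tested with the robust quasi-likelihood test with 1 mean per group (edgeR 4.0.16, limma 3.58.1, R 4.3.3), on 12 libraries, or 15 where LD libraries enter. P-values were adjusted by Benjamini-Hochberg over all tested genes and called under 0.05. The script was tested on simulated data. CPM use TMM totals, and levels per kilobase the union of exons. DESeq2 1.42.0 was an alternative.

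Equal replicate numbers were not taken to pair samples. Of 18 same-numbered pairs, 2 had deviations correlated above 0.1 (range -0.22 to 0.16). Pairs of unequal number were not set beside them, so this check cannot exclude pairing. The 9 genes and the lists were chosen with earlier results of these data known. All 9 are named, with called list genes, the 2 smallest p-values per list for training and detraining, and the 3 genes most alike for each member whose average log2 CPM reached 1, from genes that reached 2. Some genes that this rule names are not reported here.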

Additional observations from a re-analysis of the deposited data

How the results depend on the processing

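In 110 alternative fits of the 7 comparisons, 0 called any of the 9 genes, and the lowest adjusted p was 0.0577. These fits share libraries and are not separate tests. For detraining, the exchange of the 9-month groups repeats the main test with every sign turned, so its outcome was fixed. Fits with 1 library left out hold fewer libraries than the main fit. Of 922 log2 values, 834 kept their sign and 88 did not, 25 of them with the 9-month groups exchanged as the treatment field has them and 50 with 1 library left out. Beyond the exchange, a sign turned only where the value of the main fit was at most 0.44 in size. A turned value could be larger, such as -0.67 for Dnmt3b in LD against untrained without LD replicate 4. The cause was not tested.

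With limma-voom the values that turned were -0.043 (Uhrf1) for training, -0.011 (Dnmt3a) and -0.027 (Dnmt3b) for detraining minus training, and -0.11 (Dnmt3b) for LD against untrained. When the LD libraries counted as trained, they were -0.070 (Dnmt1), 0.069 (Tet2) and -0.23 (Tdg) for training, -0.093 (Dnmt3a) for detraining minus training and -0.0045 (Mbd1) for detrained against trained. When the LD libraries counted as untrained, they were -0.014 (Dnmt3a) and -0.12 (Uhrf1) for training and -0.13 (Dnmt3a) for age.

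The replicate block, for a pairing that was neither shown nor excluded, turned 1 value, -0.040 (Dnmt3b) for detraining minus training, and called 0 of the 9. No paired analysis was possible for the LD comparisons because LD replicates carry other numbers.

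The exchange of the 9-month groups gave 0.14 (Dnmt1), -0.25 (Dnmt3a), -0.24 (Dnmt3b), 0.91 (Uhrf1), 0.69 (Tet1), 0.47 (Tet2), 0.061 (Tet3), 0.0043 (Mbd1) and 0.52 (Tdg) for detraining. For detraining minus training it gave 0.14 (Dnmt1), -0.49 (Dnmt3a), -0.47 (Dnmt3b), 0.62 (Uhrf1), 0.50 (Tet2), 0.095 (Tet3) and 0.41 (Tdg). For age it gave 0.024 (Dnmt3b), -0.36 (Uhrf1), -0.22 (Tet1), -0.17 (Tet2) and -0.34 (Tdg), and for detrained against trained -0.12 (Dnmt3a), 0.26 (Uhrf1), 0.34 (Tet2) and 0.068 (Tdg).

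Leaving out 1 library, with the sign turning in at least 1 fit, training ranged from -0.086 to 0.080 (Dnmt1), -0.0027 to 0.41 (Dnmt3a), -0.24 to 0.087 (Tet2), -0.029 to 0.28 (Tdg), -0.12 to 0.027 (Tet3) and -0.071 to 0.76 (Uhrf1). Detraining ranged from -0.19 to 0.065 (Tet3), -0.063 to 0.076 (Mbd1) and -0.053 to 0.56 (Dnmt3b). Detraining minus training ranged from -0.28 to 0.33 (Dnmt3b), -0.16 to 0.098 (Tet3) and -0.16 to 0.26 (Dnmt3a). Age ranged from -0.12 to 0.30 (Dnmt3a) and -0.23 to 0.025 (Dnmt1). Detrained against trained ranged from -0.25 to 0.010 (Tet2) and -0.50 to 0.11 (Dnmt3b). LD against untrained ranged from -0.053 to 0.043 (Mbd1), -0.041 to 0.29 (Tet2), -0.13 to 0.016 (Tet3) and -0.67 to 0.46 (Dnmt3b), and LD against trained from -0.034 to 0.79 (Uhrf1), -0.058 to 0.025 (Tet3) and -0.90 to 0.24 (Dnmt3b).

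Calls over all genes depended on the tool: for training edgeR made 0, DESeq2 112 and limma-voom 0, for detraining 3, 30 and 0, and for LD against untrained 757, 1190 and 809. With at least 1 CPM required in 3 libraries, 7 of the 9 genes were tested in the 12 libraries and 8 in the 15. Counts of 2 to 40 per library limit the precision of Dnmt3b, Uhrf1 and Tet1, whose biological coefficients of variation (29.4%, 57.0% and 35.7%) were also above the median of 16.6%, and what depth alone allows was not tested.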
